A study of Homo sapiens with 22 samples.

Results

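The cytosolic ribosomal protein genes encode the proteins of the large (RPL) and small (RPS) subunits of the ribosome that translates nuclear messages. They were taken from the RefSeq protein-coding genes by symbol, as RPL or RPS followed by a number with an optional A, L, X or paralogue ending, together with RPSA, RPLP0, RPLP1 and RPLP2, and without the RPS6K kinases. Of 20052 protein-coding genes, 87 met this rule. The 2 on chromosome Y were not described, which left 85 of the 19970 genes on chromosomes 1 to 22 and X. Of these, 53 encode large-subunit proteins and 32 small-subunit proteins, and they were described by the MTBP peaks, initiation zones and H3K4me2 peaks within 5 kb of each gene's span.

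The study asked where MTBP, the partner of Treslin, binds the human genome and how this relates to the start of DNA replication. The cells were DLD-1, an established line from a human colorectal adenocarcinoma, and every derivative used carried MTBP fused to mAID, an auxin-inducible degron tag. CUT&RUN, in which an antibody steers a nuclease to its target, used a FLAG antibody in untagged MTBP-mAID/MTBP-mAID cells (3 libraries), in cells with full-length MTBP-WT-FLAG beside MTBP-mAID (3 libraries, WT) and in cells with MTBP-deltaC-FLAG beside MTBP-mAID (3 libraries, deltaC, the protein cut short at its C terminus). IgG (2 libraries) and H3K4me2 (2 libraries) were profiled in the MTBP-WT-FLAG line. EdU-seq, which sequences newly made DNA labelled with 10 µM EdU for 3 hr, was done in WT cells arrested in G1 and in WT and deltaC cells released into S phase with hydroxyurea and aphidicolin (3 libraries each). How many clones stand behind each line is not given in the sources used here.

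The 3 lists used here summarise the 22 libraries, 8 groups in all. They hold 29848 MTBP peaks, 2473 initiation zones and 62388 H3K4me2 peaks on chromosomes 1 to 22 and X. Each MTBP peak has 1 signal value for WT and 1 for deltaC, with no library values beside them. No difference could therefore be set against the spread between replicates, and no test was made; counts and medians are given beside those of all genes or all peaks. Library depth is unknown here, and the scaling of the signals between the lines is not stated. As a check of the cell type, an H3K4me2 peak lay within 1 kb of 12 of 12 colorectal epithelial markers and of 9 of 19 markers of other cell types. The share of all genes at 1 kb was not computed. Within 5 kb the counts were 12 of 12 and 11 of 19, against 78.7% of all protein-coding genes, so this check is a weak one.

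MTBP and Treslin act together at licensed origins, where they help to turn loaded helicases into active replication forks. H3K4me2 marks active promoters and enhancers. Ribosomal protein genes are short, are transcribed at high rates in nearly all dividing cells, and many start within a run of pyrimidines, the terminal oligopyrimidine (TOP) element that places translation of their messages under growth control. Many also carry small nucleolar RNAs (snoRNAs) in their introns.

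The start regions below belong to the genes whose own promoter carried the MTBP peaks with the lowest and highest deltaC signal relative to WT, and to RPL3, which lay in the zone with the highest score among these genes. A promoter entry from RefSeq (GRCh38.p14) matched 68 of the 85 genes. Each line gives 60 bases before and 15 bases from the start, 5′ to 3′ along the gene. Capitals mark an unbroken pyrimidine run of at least 5 bases that crosses the annotated start. No such run crosses the start of RPL32, RPL10 or RPL4. The first 4 genes had the lowest ratios at their own start and the next 4 the highest.
RPL32 (chr3:12841551-12841625, minus strand): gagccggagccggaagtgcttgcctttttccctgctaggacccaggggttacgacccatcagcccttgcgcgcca
RPS16 (chr19:39435935-39436009, minus strand): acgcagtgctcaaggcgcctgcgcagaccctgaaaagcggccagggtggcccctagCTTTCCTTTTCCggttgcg
RPL10 (chrX:154398005-154398079, plus strand): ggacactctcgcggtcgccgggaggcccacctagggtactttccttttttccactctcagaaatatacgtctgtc
RPLP2 (chr11:809907-809981, plus strand): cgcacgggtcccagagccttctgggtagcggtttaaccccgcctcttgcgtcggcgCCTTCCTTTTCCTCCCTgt
RPL4 (chr15:66504841-66504915, minus strand): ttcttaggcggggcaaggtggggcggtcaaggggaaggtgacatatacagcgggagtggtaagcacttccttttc
RPS24 (chr10:78033803-78033877, plus strand): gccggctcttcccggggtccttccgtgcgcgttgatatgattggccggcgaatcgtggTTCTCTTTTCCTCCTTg
RPL41 (chr12:56116573-56116647, plus strand): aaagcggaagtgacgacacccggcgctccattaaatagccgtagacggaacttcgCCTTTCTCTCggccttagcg
RPS13 (chr11:17077653-17077727, minus strand): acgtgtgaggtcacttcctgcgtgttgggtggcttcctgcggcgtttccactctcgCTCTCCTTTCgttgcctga
RPL3 (chr22:39319609-39319683, minus strand): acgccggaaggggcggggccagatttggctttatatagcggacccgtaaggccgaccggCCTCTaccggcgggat

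A pyrimidine run at the start was far more frequent in these genes than in all promoters. A C followed by pyrimidines, at least 5 bases in all, stood at the start of 43 of 68 (63.2%), against 728 of 15811 promoters with an entry (4.60%). On the gene's strand, CTCTTT lay between 10 bases before and 20 bases after the start in 12 of 68 (17.6%, against 1.20% of all promoters), and CTTTCC in 16 of 68 (23.5%, against 1.55%). These motifs can lie within the same pyrimidine run, so their counts overlap. Over the whole window of 300 bases and on both strands, CCGGAAG (the ETS/GABP motif) was in 33.8% of these promoters and in 14.2% of all, and AAGATGG (the YY1 motif) in 13.2% and 6.40%. The SP1 motif GGGCGG was in 54.4% and 58.5%, and the E-box CACGTG in 5.88% and 8.87%. GC content had a median of 59.7%, against 62.7% for all promoters.

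Nearly all ribosomal protein genes carried the active mark. An H3K4me2 peak lay within 5 kb of 84 of 85 genes (98.8%), against 78.7% of all protein-coding genes. The exception was RPL10L, a retrotransposed relative of RPL10, whose nearest MTBP peak was 937 kb away. The strongest H3K4me2 peak of each gene had a median fold enrichment of 22.7, as the authors give it, against 27.9 for all genes with a peak, and a median width of 3150 bp against 2610 bp. At single genes this fold ran from 5.64 at RPL39L to 50.5 at RPL35.

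MTBP lay near 65 of the 85 genes (76.5%), against 60.6% of all protein-coding genes. Among genes with H3K4me2 the shares lay close together, at 65 of 84 (77.4%) for ribosomal protein genes and 76.8% for all. Their spans were shorter, with a median of 5.04 kb against 24.2 kb, so the window around them was smaller than that of most genes. At the start itself, an MTBP peak lay within 1 kb of 43 of 68 starts (63.2%), against 43.0% of all starts with an entry, and an H3K4me2 peak within 1 kb of 66 of 68 (97.1%, against 63.9%). The subunits were close in these counts, with MTBP near 40 of 53 large-subunit and 25 of 32 small-subunit genes. Most had few peaks: 35 genes had 1, 25 had 2, 4 had 3, and RPL27A had 4.

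Initiation zones were also near more of these genes than of all genes. A zone lay within 5 kb of 34 of 85 (40.0%), against 27.1% of all protein-coding genes, and a start lay inside a zone for 20 of 68 (29.4%), against 19.4% of all starts. Zones were near 21 of 53 large-subunit and 13 of 32 small-subunit genes. MTBP and a zone were both near 27 genes, MTBP alone near 38, a zone alone near 7, and neither near 13. With a zone nearby, 27 of 34 genes (79.4%) had MTBP, against 78.7% of all genes with a zone. Without one, 38 of 51 (74.5%) had MTBP, against 53.8% of all genes without a zone. H3K4me2 was near fewer of all genes (78.7%, against 98.8%), and this split was not made among genes with the mark.

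**Figure D1:**
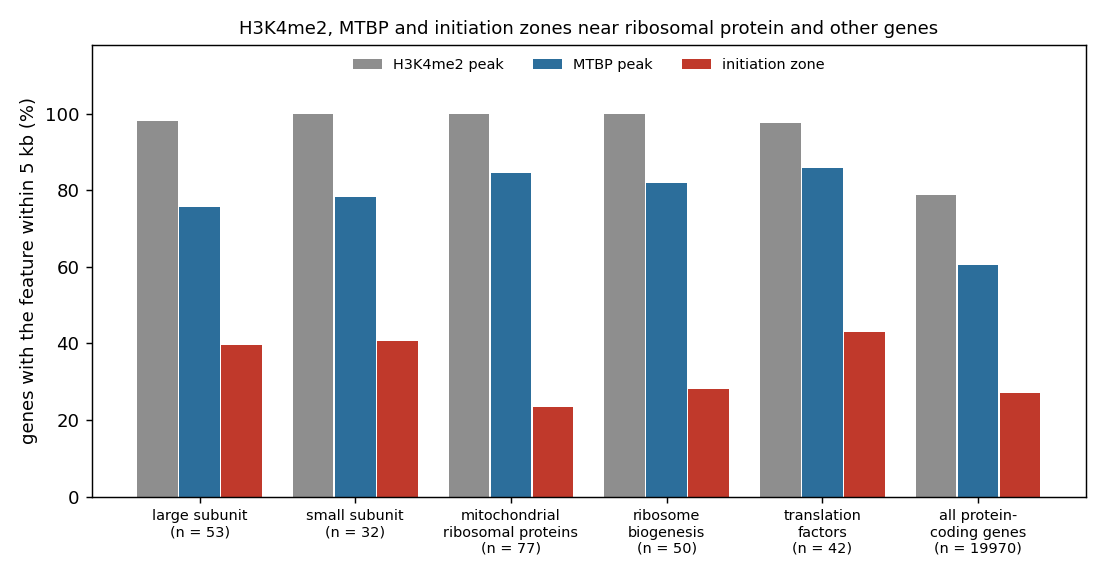
Share of genes (%) with an H3K4me2 peak (grey), an MTBP peak (blue) or an initiation zone (red) within 5 kb, for large- and small-subunit genes, 3 other lists and all protein-coding genes, with the number of genes under each group. Both ribosomal subunits stand above all genes for each feature, and mitochondrial ribosomal protein genes have MTBP at 65 of 77 but zones at 18 of 77.

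Other genes of protein synthesis gave a scale for these shares. The mitochondrial ribosomal protein genes (MRPL and MRPS), which build the separate ribosome of mitochondria, had MTBP at 65 of 77, a zone at 18 of 77 and H3K4me2 at 77 of 77. Ribosome biogenesis genes had MTBP at 41 of 50, a zone at 14 of 50 and H3K4me2 at 50 of 50. Translation factor genes had MTBP at 36 of 42, a zone at 18 of 42 and H3K4me2 at 41 of 42. The share with MTBP was thus higher in each of these lists than in the cytosolic ribosomal protein genes, while the share with a zone was lower in the mitochondrial and biogenesis lists and higher for translation factors.

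Of the 20 genes without MTBP, 19 had H3K4me2. Near a zone lay 7 of them, among them RPL22, RPL10A, RPL3L, RPL27, RPS28 and RPS4X. The others with H3K4me2 were RPL11, RPS7, RPL37A, RPL39L, RPL37, RPS10, RPS6, RPL7A, RPLP1, RPS15A, RPL36A and RPL39. RPS6 is the substrate of the S6 kinases, and RPL11 is known for binding MDM2. Their strongest H3K4me2 peak had a median fold of 21.9 (5.64 to 38.0, 19 genes), against 23.0 (10.7 to 50.5) at the 65 genes with MTBP, and the ranges overlapped. Their nearest MTBP peak lay 5.70 to 937 kb away, with a median of 22.5 kb, and RPLP1 and RPL3L are among those with a peak just past the 5-kb window.

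The zones near ribosomal protein genes numbered 32. Their median width was 75.9 kb (18.5 to 198 kb), against 51.0 kb for the 2190 zones within 5 kb of any protein-coding gene and 48.3 kb for all zones. Wide zones reach more genes, so choosing zones by their distance to a gene favours wide ones. Their median score was 1384 (224 to 6192), against 698 near any protein-coding gene and 628 for all zones. The score is the authors' average of the peaks in a zone, and 17 of the 32 zones fell in the highest quartile of all zones. They held a median of 4 MTBP peaks, against 2 for all zones, and wider zones have more room for peaks. At least 1 lay in 29 of the 32, and in 1841 of the 2190 zones near any protein-coding gene. Of the 144 MTBP peaks in these zones, 36 lay within 5 kb of a ribosomal protein gene. In 24 cases the whole gene lay inside, in 5 it crossed the edge, and in 5 the zone reached only the 5-kb window.

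The highest score belonged to the zone of RPL3, a protein near the peptidyl transferase centre. This zone (chr22:39220798-39406278, hg38) scored 6192, spanned 185 kb and held 7 MTBP peaks. Next came the zones of RPL18 (score 3379, 14 MTBP peaks), RPL13 (3040, 2 peaks), RPS3 (2995, 5 peaks) and RPS14 (2867, 6 peaks). RPS14 is the small-subunit gene known for its loss in the 5q- syndrome. RPL3L, a muscle paralogue of RPL3, and RPS2 share a zone of 183 kb with a score of 2842. At the other end, the zones near RPL5 (224), RPL32 (269), RPL36 (293), RPL10 (294) and RPS4X (320) had the lowest scores, and no MTBP peak lay in those of RPL5, RPL10 and RPS4X.

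**Figure D2:**
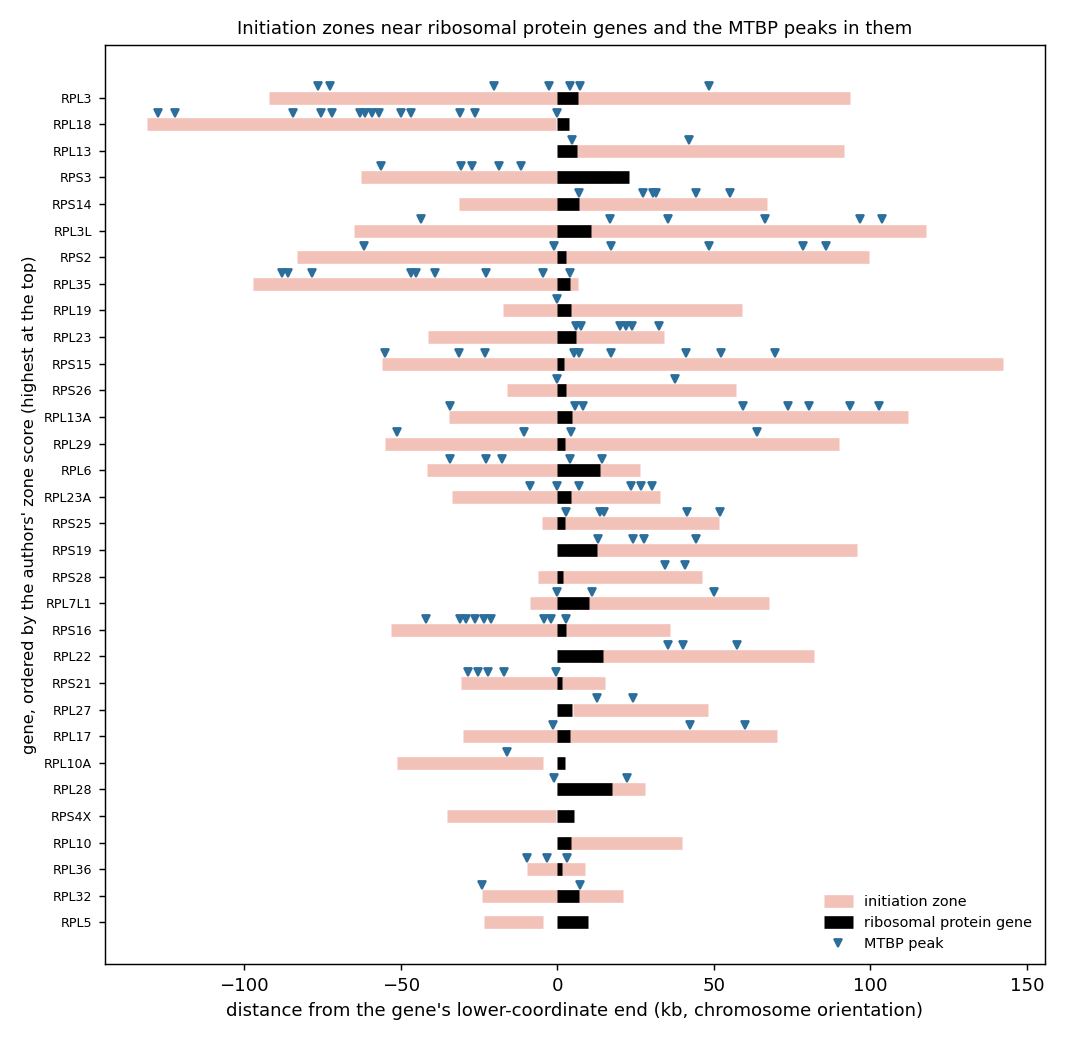
Position of each initiation zone (pink), the ribosomal protein gene (black) and the MTBP peaks in the zone (blue marks), in kb from the lower-coordinate end of the gene, for 32 of the 34 genes with a zone within 5 kb, ordered by zone score. Genes lie in the middle of some zones (RPL3) and at the border of others (RPL18), and most MTBP peaks of these zones lie away from the ribosomal protein gene.

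Chromosome 19 carried 12 of the 85 genes, the most of any chromosome, with MTBP near 11 and a zone near 9. On chromosome 17 these counts were 5 and 4 of 6 genes. Among chromosomes with at least 3 of these genes, none of the genes on 2, 4, 8, 14 and 15 lay near a zone, although MTBP lay near 2 of 4, 3 of 3, 4 of 4, 2 of 3 and 3 of 4 of them. Shares of all protein-coding genes per chromosome are not given here. These counts therefore cannot be told apart from a trait of the whole chromosome. Of the 4 X-linked genes, RPL10 had both features, RPS4X had a zone, and RPL36A and RPL39 had neither. The 8 paralogues with an L ending (RPL3L, RPL7L1, RPL10L, RPL22L1, RPL26L1, RPL36AL, RPL39L and RPS27L) had MTBP at 5, a zone at 2 and H3K4me2 at 7.

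Genes that host snoRNAs were more often near both features. Of the 29 genes with an annotated snoRNA inside, 60 snoRNAs in all, 25 had MTBP (86.2%) and 14 a zone (48.3%). Of the 56 without, 40 had MTBP (71.4%) and 20 a zone (35.7%). A second protein-coding start lay within 1 kb of 15 of 68 starts (22.1%, against 13.9% of all starts), and 13 of those 15 genes had MTBP, against 40 of the other 53. Genes with the pyrimidine start had MTBP at 35 of 43 and a zone at 13 of 43. Those without it had MTBP at 18 of 25 and a zone at 14 of 25. The numbers in each group are small, and none of these differences was tested.

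The 65 genes with MTBP had 99 peaks, 62 near large-subunit genes, 35 near small-subunit genes and 2 near genes of both subunits. The authors placed 81 of them (81.8%) in the promoter class, against 34.7% of all MTBP peaks, 11 in the enhancer or super-enhancer class and 7 elsewhere. Being chosen by distance to a gene, these peaks were bound to lie at promoters more often. H3K4me2 overlapped 93 of the 99 (93.9%), against 98.9% of all MTBP peaks, and 36 lay in zones (36.4%, against 23.0%). They were of middling strength, with a median peak score of 160 against 190 for all peaks and a median WT signal of 360 against 371.

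The peak with the highest score was at the promoter of RPS19, the gene most often mutated in Diamond-Blackfan anaemia (chr19:41859343-41860304; score 757). Its signal was 799 in WT and 418 in deltaC. At RPL3 the highest peak (chr22:39308565-39311867; score 577) lay 10311 bp downstream of the start and had the highest WT signal of all 99 peaks, 1905, with 616 in deltaC. Peaks near RPL7L1, RPL23A, and then RPS24 and RPS9 with the same score, followed at 550, 511 and 384. The authors placed those near RPL7L1, RPL23A and RPS24 at the starts of other genes, C6orf226, TLCD1 and POLR3A. The peak near RPS9 had its summit 8959 bp downstream of the RPS9 start. The WT signal at these last peaks was 647, 1754, 453 and 757, so the score and the signal did not give the same order.

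MTBP summits at the genes' own starts lay mostly upstream. Of 43 peaks that came within 1 kb of a start, 32 (74.4%) had their summit before it. Over all genes this share was 57.1%, taken over the 6801 starts with such a peak. A peak shared by close starts can count there more than once. The median summit was at -195 bp, against -118 bp. Summits lay within 500 bp of the start in 39 of 43 (90.7%, against 84.3%), but within 250 bp in only 21 of 43 (48.8%, against 60.9%). Summits of RPS13, RPL27A and RPS19 were at -307, -252 and -295 bp, while that of RPS27A (the gene of a ubiquitin and ribosomal protein fusion) lay at 560 bp.

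At every one of the 99 peaks the deltaC signal was below the WT signal, as it was at 95.5% of all MTBP peaks. The median deltaC signal was 149, against a WT median of 360. The median of log2((deltaC + 1)/(WT + 1)) was -1.22, with quartiles of -1.63 and -0.85, against -0.93 for all peaks and -0.97 for all promoter-class peaks. The signal was at least 1.5-fold lower in deltaC at 88 of 99 peaks (88.9%), against 75.7% of all peaks. It was at least 1.5-fold higher at 0 of 99, against 1.06% of all peaks. The authors named all of the 99 peaks for WT, apart from a peak of RPL41. Peaks picked by their WT signal would tend to have less signal in deltaC. How the list was picked is not stated, so the direction of these counts may follow partly from the choice of peaks.

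Part of this gap to all peaks was shared with the surroundings. Each peak was compared with the median of the other MTBP peaks within 1 Mb. Of the 99 peaks, 59 (59.6%) lay below that local median, against 49.9% of all peaks, and the median difference was -0.16 (log2) against 0.00. Chromosomes 17 and 19 had the lowest medians over all their peaks, -1.22 and -1.18, and held 9 and 20 of the 99 peaks. Leaving out chromosome 17, the median log2 ratio near ribosomal protein genes was -1.15. Leaving out chromosome 19, it was -1.22, as with all chromosomes.

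**Figure D3:**
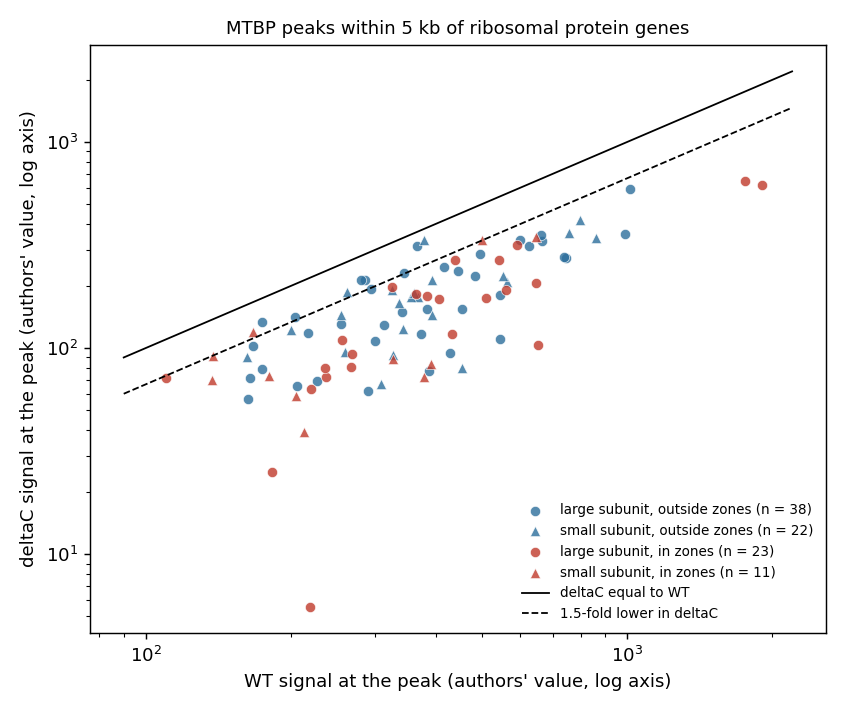
deltaC against WT signal (the authors' values, both axes logarithmic) at 94 MTBP peaks within 5 kb of ribosomal protein genes; circles are large-subunit and triangles small-subunit genes, red in zones and blue outside, and the peak of RPL27A listed at 0 in deltaC and 4 others are left out. All points lie below the line of equal signal, and most lie below the dashed line at 1.5-fold lower.

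Peaks in zones had a lower deltaC signal relative to WT than peaks outside. The WT medians were alike, 363 at 36 peaks in zones and 356 at 63 outside. The deltaC medians were 106 and 166. The log2 ratio had a median of -1.52 in zones and -1.06 outside, a difference of -0.46, where all MTBP peaks gave -1.14 and -0.87, a difference of -0.26. Relative to the other peaks within 1 Mb, the medians were -0.37 in zones and -0.12 outside. The signal was at least 1.5-fold lower in deltaC at 34 of 36 peaks in zones and at 54 of 63 outside, against 87.0% and 72.3% of all peaks.

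The contrast between zones and other sites was also set out by position. At the genes' own starts, the median log2 ratio was -1.09 in zones (11 peaks) and -1.06 outside (32 peaks). At peaks further from the start it was -1.55 in zones (20 peaks) and -1.13 outside (22 peaks). The remaining 14 peaks, some of them at promoters, belong to genes without a promoter entry and are in neither group. By the authors' classes, the 25 promoter-class peaks in zones had a median of -1.55 and the 56 outside -1.06, a difference of -0.49. All promoter-class peaks gave -1.17 and -0.90. The 10 enhancer-class peaks in zones had a median of -0.96, less low than the -1.11 of all enhancer-class peaks in zones. On the gene span alone the difference between zones and other sites was -0.19, and with zones widened by 50 kb it was -0.22.

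**Figure D4:**
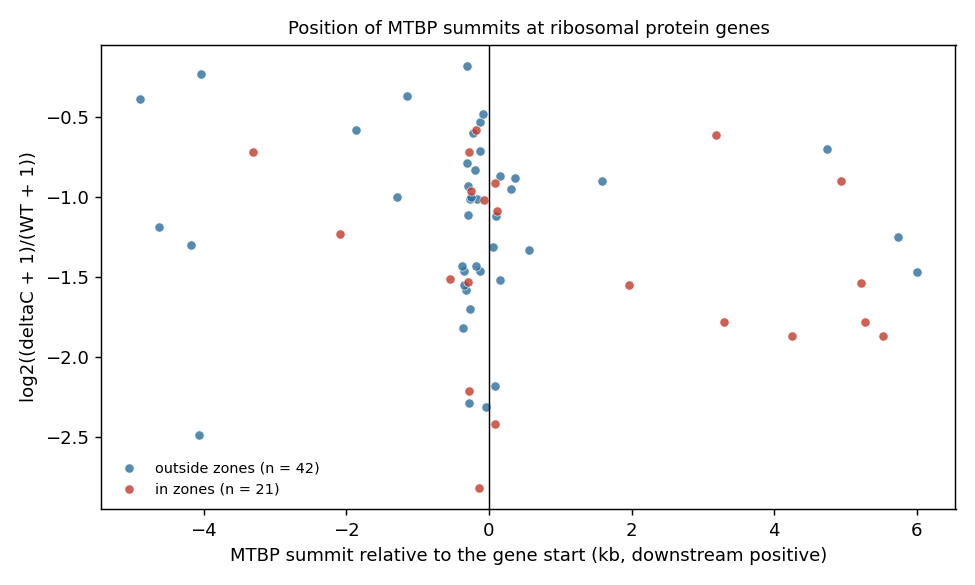
log2((deltaC + 1)/(WT + 1)) against the distance of the MTBP summit from the gene's start (kb, downstream positive) at 63 peaks with a summit within 6 kb of a start, 21 in zones (red) and 42 outside (blue). Summits crowd just upstream of the start, where the ranges of red and blue points overlap.

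Large- and small-subunit genes overlapped almost fully. The median log2 ratio was -1.24 at 62 large-subunit peaks and -1.06 at 35 small-subunit peaks, a difference of -0.18. In zones the medians were -1.53 (23 peaks) and -1.29 (11 peaks), and outside -1.12 (39 peaks) and -1.04 (24 peaks). The difference between subunits was smaller than the distance between the quartiles over all 99 peaks, -1.63 to -0.85. The share of peaks at least 1.5-fold lower was 90.3% (56 of 62) and 85.7% (30 of 35). With a 1-kb window the difference was -0.32, and over peaks of at least the median score -0.36.

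**Figure D5:**
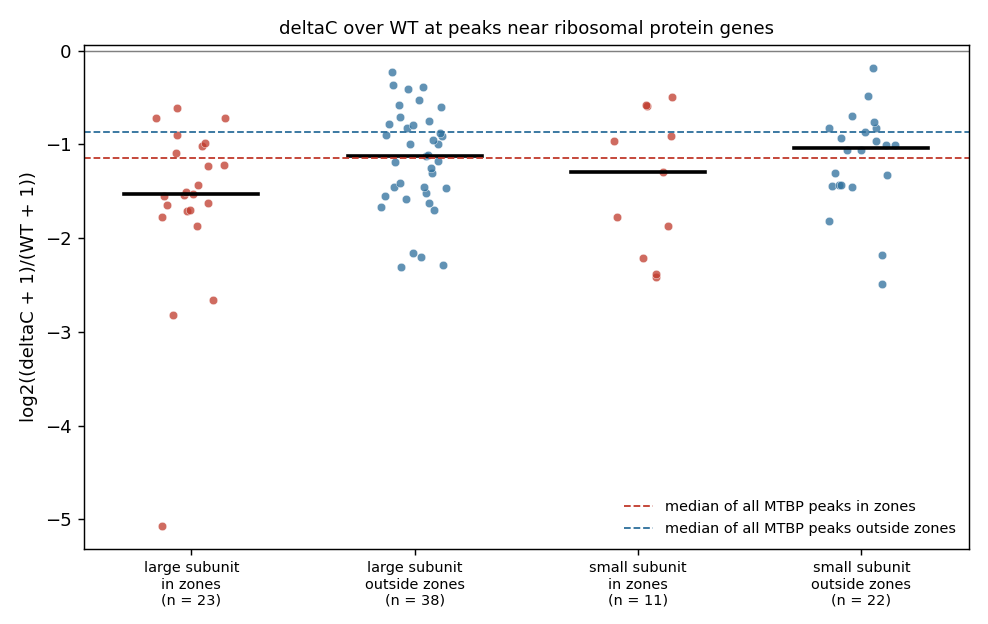
log2((deltaC + 1)/(WT + 1)) at each MTBP peak by subunit and zone, with the median of each group (black bars) and the medians of all MTBP peaks in zones (red dashes, -1.14) and outside (blue dashes, -0.87). The RPL27A peak listed at 0 and 4 others are not drawn, though those of 1 subunit count in their group's median; all 4 medians lie below the matching dashed line.

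Single genes spanned a wide range. The lowest measured ratio was at a peak near RPL6 (chr12:112419078-112419741), a large-subunit gene, where the signal was 219 in WT and 5.57 in deltaC (log2 -5.07). The authors placed this peak at the start of a neighbouring gene, with its summit at -8115 bp from the start of RPL6. The other RPL6 peak, with its summit 1964 bp downstream of that start, had 236 and 80.2 (log2 -1.55). The authors placed this other peak at a promoter of RPL6, 303 bp from a start. A peak near the 3′ end of RPL27A (chr11:8690043-8691046) had 160 in WT and was listed at 0 in deltaC, so no fold is given. The other 3 peaks of RPL27A had deltaC signals of 357, 313 and 214, with log2 ratios between -1.47 and -0.41.

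The promoter peak of RPL32 came next, with 183 in WT and 25.1 in deltaC (log2 -2.82). A promoter-class peak of RPL23A, a protein at the exit of the nascent chain, had 654 and 103 (log2 -2.66), while the stronger peak nearby had 1754 and 649 (log2 -1.43). Both genes lay in a zone, and those zones scored 269 and 1476.

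At the other end, the signals lay closest together at RPS13, with 378 in WT and 334 in deltaC at its promoter peak (log2 -0.18). A peak near RPL14 had 366 and 312 (log2 -0.23). RPL41, which encodes a very short ribosomal peptide, had the only one of the 99 peaks that the authors named for deltaC, with 174 and 134 (log2 -0.37). A peak upstream of RPL22L1, a paralogue of RPL22, had 280 and 213 (log2 -0.39). These 4 peaks lay outside zones.

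Genes of like sequence at their start fell at both ends. RPS16 and RPLP2, with log2 ratios of -2.42 and -2.29 at their own start, have a pyrimidine run across the annotated start. So do RPS24, RPL41 and RPS13, with -0.48, -0.37 and -0.18. No such run crosses the start of RPL32 and RPL10 (-2.82 and -2.31) or RPL4 (-0.53), though their printed regions hold pyrimidine runs elsewhere. The split by pyrimidine start thus depends on where the start is annotated. That split is also narrower than the capitals, as it needs a C at the start and at least 5 pyrimidines counted from there. The capitals of RPL3 reach only 4 bases from the start, so RPL3 counts as without the pyrimidine start. Over all own-start peaks the median was -1.07 with the pyrimidine start (28 peaks, -2.42 to -0.18) and -1.09 without it (15 peaks, -2.82 to -0.53). The ranges overlapped almost fully.

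Peaks near the other lists were closer to the median of all peaks. The median log2 ratio was -1.02 over 93 peaks of mitochondrial ribosomal protein genes, -1.04 over 54 peaks of ribosome biogenesis genes and -1.11 over 60 peaks of translation factor genes. In zones and outside, the mitochondrial list gave -1.30 and -0.99, the biogenesis list -1.43 and -0.98, and the translation factors -1.08 and -1.15. A lower ratio in zones was thus also seen in 2 of these 3 lists, and not in the translation factors. Relative to the other peaks within 1 Mb, the median was -0.11 for translation factors, 0.01 for the mitochondrial list and 0.08 for the biogenesis list. For the cytosolic ribosomal protein genes it was -0.16, close to that of the translation factors. Whether the cytosolic ribosomal protein genes differ from these lists was not tested.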

How the data were processed

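The cytosolic ribosomal protein genes, the comparison lists and the measures were chosen with earlier results of these data known. The lists were made by the authors from 22 libraries (8 groups). The submitters' processing notes name hg38 as the build, and HOMER, MACS2, Bowtie2 and Trim Galore as tools. Versions, parameters, pooling of replicates and the EdU-seq libraries behind the zones were not given in the sources used here. In the MTBP list the authors' values were a score per peak and a signal for WT and for deltaC, of unstated scaling. In the zone list the authors gave an average score. In the H3K4me2 list the authors' deposited values were a score, a fold enrichment ratio and −log10 p and q values, of which the fold and the score were used. No per-sample column was left unused (0).

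From these, overlaps of at least 1 bp within 5 kb of RefSeq gene spans (GRCh38.p14, the assembly of hg38) and log2((deltaC + 1)/(WT + 1)) were computed with Python 3.11.15, pandas 2.3.3 and numpy 2.4.6, a pseudocount of 1 being added. A peak was called where the signals differed 1.5-fold. Start sites came from RefSeq's promoter table. The overlap code was tested on simulated intervals. With pooled values and unknown depth, no p-value, error or interval could be given, and a scaling difference between WT and deltaC would shift all ratios alike. The genes named were the 5 with the highest-scoring MTBP peak, the 5 peaks with the highest and the 5 with the lowest ratio, the 5 zones with the highest score, genes without H3K4me2 or MTBP, and the X-linked genes, apart from some genes not reported here by name; others, and the 5 zones of lowest score, were named after their values were seen. Windows, filters, pseudocounts, single chromosomes and the local scaling were varied, the last, the start-site windows and leaving out chromosome 19 being added after the data were seen. The IgG, untagged and G1-arrested libraries were not analysed here.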

Additional observations from a re-analysis of the deposited data

How the results depend on the processing

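Counting MTBP peaks at or above the median score, 41 of 85 genes had MTBP. With the zone's centre required in the window, 6 of 85 genes had a zone. The shares of all protein-coding genes under these rules were not computed, so neither count can be compared with all genes. An MTBP peak lay within 1 kb of 43 of 68 starts (63.2%, against 43.0% of all starts). In a zone lay 20 of 68 starts (29.4%, against 19.4%). The median log2 ratio of all peaks near the genes was -1.09 on the gene span alone, -1.36 as a mean and -0.16 relative to the peaks within 1 Mb. The difference in zones minus outside was -0.19 on the gene span alone, -0.30 for peaks of at least the median score and also as a mean, -0.22 with zones widened by 50 kb and -0.25 relative to the peaks within 1 Mb. Large minus small subunit was -0.32 with a 1-kb window, -0.36 for peaks of at least the median score and -0.29 without paralogue-ending genes. The causes were not tested. No value changed sign, and every other alternative tried moved a count by less than 1.5-fold or a median by less than 0.1. No paired analysis was possible because the lists hold no library values. The lists carry no depth, so absence of a peak or a signal listed at 0 cannot be told from low coverage.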
